A study of Mus musculus with 2 samples.

Results

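The 85 potassium channel genes described here were the autosomal protein-coding genes, of 20807 in the mouse annotation, whose symbols begin with Kcna, Kcnb, Kcnc, Kcnd, Kcnf, Kcng, Kcnh, Kcnip, Kcnj, Kcnk, Kcnma, Kcnmb, Kcnn, Kcnq, Kcns, Kcnt or Kcnv. Single genes entered by symbol and position alone, but the group as a whole was chosen with earlier results of these data known. Their chromatin was read from DNase-seq of left cerebral cortex tissue of 2 female mice aged 4 days. The mice were B6CASTF1/J, the F1 hybrid of the C57BL/6J and CAST/EiJ strains, and no treatment is named for either of them. There was 1 group with 2 libraries, replicate 1 and replicate 2, which carry different animal numbers and a single strain-level donor. Nothing was compared between conditions, so the values of the channel genes are described beside those of all autosomal protein-coding genes, without a test.

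DNase-seq maps where the enzyme DNase I cuts chromatin, and a stretch cut more than its surroundings is a DNase I hypersensitive site (DHS), the usual sign of an open promoter or enhancer. Within a DHS, a footprint is a short run of bases that was cut less than its neighbours, as happens under a bound protein. In bulk tissue, a site open in few cells and a site weakly open in many cells cannot be told apart. The stricter deposited lists held 59355 DHS calls in replicate 1 and 46566 in replicate 2, which formed 26012 DHSs shared by both libraries. Each call carries the authors' signal value, a tag density whose scaling is not stated, so pairs of signal values are given in the order replicate 1, replicate 2 and are ranked only within a library. A gene was said to have a promoter call when a call lay within 1 kb of one of its transcription starts.

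The tissue label was checked by the promoter calls of marker genes, and only some neuronal markers were called in both libraries. Of 8 projection neuron markers, 3 were called in both libraries (Tbr1 among them), 4 in replicate 2 only (Neurod2, Neurod6, Bcl11b and Emx1), and Slc17a7 in neither. The oligodendrocyte lineage had 3 of 5 markers called in both libraries, interneurons 1 of 4 (Gad1) and astrocytes 1 of 4 (Slc1a3). Of 3 microglial, 3 hepatocyte and 3 heart and muscle markers, none was called in either library. Of 4 endothelial and mural markers, Cdh5 was called in replicate 1 only. Of 2 blood markers, 1 was called in both libraries. Because neurons and glia were measured together, a channel gene's DHS is not assigned to a cell type here.

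Potassium channels let potassium leave or enter the cell and set the resting potential, the shape and rate of action potentials and the release of transmitter. The voltage-gated (Kv) families open on depolarisation, the calcium- and sodium-activated families respond to ions inside the cell, the inward rectifiers pass current best near rest, and the two-pore domain channels carry the leak. In the neonatal cortex neurons are still acquiring adult firing properties, and many channel genes are known to rise in expression over the following weeks. Some are known in glia, in the heart, in kidney or in other epithelia rather than in neurons.

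A promoter call was present at 55 of the 85 genes in replicate 1 (64.7%, against 58.3% of all autosomal protein-coding genes) and at 63 in replicate 2 (74.1% against 61.3%). It was present in both libraries at 55 genes (64.7% against 57.2%). All 55 genes called in replicate 1 were therefore also called in replicate 2, and at each of them some call of the libraries overlapped. The strongest call was taken in each library separately, so a pair of signal values can come from different sites, as at Kcnab3, Kcnip3 and Kcns2. The other 8 genes called in replicate 2 had no promoter call in the stricter list of replicate 1, which is 9.41% of the channel genes against 4.17% of all genes. No channel gene was called in replicate 1 alone, a pattern found at 1.12% of all genes. The remaining 22 genes had no promoter call in either library. The share called in both libraries lay near that of all genes, and nothing is read from it about the channel genes.

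The sequences of 4 called promoters are printed because they span the range of the channel genes: 2 with high signals, a promoter called in 1 library only, and the weakest promoter called in both. They are from the mm10 reference (GRCm38), 5′ to 3′ on the strand of the gene, over the stretch called in every library that called the promoter, ending no more than 29 bases past the start. Capitals mark bases inside a footprint of every library that called the promoter. Kcnh1 is chr1:192190621-192190803, Kcnj2 is chr11:111065981-111066180, Kcnj10 (called in replicate 2 only) is chr1:172340981-172341220 and Kcnj16 is chr11:110997471-110997516, all on the plus strand.
Kcnh1 promoter: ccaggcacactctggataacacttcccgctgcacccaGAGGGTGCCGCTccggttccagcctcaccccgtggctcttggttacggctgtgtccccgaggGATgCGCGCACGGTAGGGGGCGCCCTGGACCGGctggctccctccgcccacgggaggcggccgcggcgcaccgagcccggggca
Kcnj2 promoter: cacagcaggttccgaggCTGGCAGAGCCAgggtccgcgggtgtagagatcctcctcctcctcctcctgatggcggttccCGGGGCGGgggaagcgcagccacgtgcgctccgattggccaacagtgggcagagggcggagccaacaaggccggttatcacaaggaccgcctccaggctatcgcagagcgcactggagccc
Kcnj10 promoter: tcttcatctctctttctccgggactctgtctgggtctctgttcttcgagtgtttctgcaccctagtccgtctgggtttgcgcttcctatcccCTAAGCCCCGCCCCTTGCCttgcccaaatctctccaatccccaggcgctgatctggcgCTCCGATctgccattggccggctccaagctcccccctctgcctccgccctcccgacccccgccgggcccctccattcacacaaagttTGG
Kcnj16 promoter: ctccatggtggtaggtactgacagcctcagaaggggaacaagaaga
The GC content of the printed stretch was 73.2% at Kcnh1, 67.5% at Kcnj2, 61.7% at Kcnj10 and 52.2% at Kcnj16. The SP1 consensus GGGCGG, searched on both strands, occurred in 3 of the 4. At Kcnj2 one of its 2 matches, at bases 82 to 87 of the printed stretch, lay wholly in footprint bases of both libraries. At Kcnj10 the match at bases 100 to 105, on the minus strand, lay wholly in footprint bases of replicate 2. The match at Kcnh1 lay outside the footprints, and Kcnj16 held none.

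Promoter signals of the channel genes were low for called promoters. Over the 55 genes called in both libraries the median signal value was 0.957 in replicate 1 (range 0.439 to 3.03), against 1.61 over the 11894 autosomal genes called in both. In replicate 2 the median was 1.88 (range 0.488 to 13.5), against 4.47. Ranked among all genes called in the same library, the median channel gene stood at percentile 16.8 in replicate 1 and 19.9 in replicate 2. The corresponding medians for all genes called in both were 51.0 and 53.4. Below the 50th percentile lay 48 of the 55 genes in replicate 1 and 46 in replicate 2, and above the 75th lay 2 in each. Pearson's r between the log2 signals of replicate 1 and replicate 2 was 0.88 across the 55 genes (0.91 over all genes called in both), so the order within the family was much alike in both animals. These genes are not independent replicates, and r describes only this pair of libraries.

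**Figure D1:**
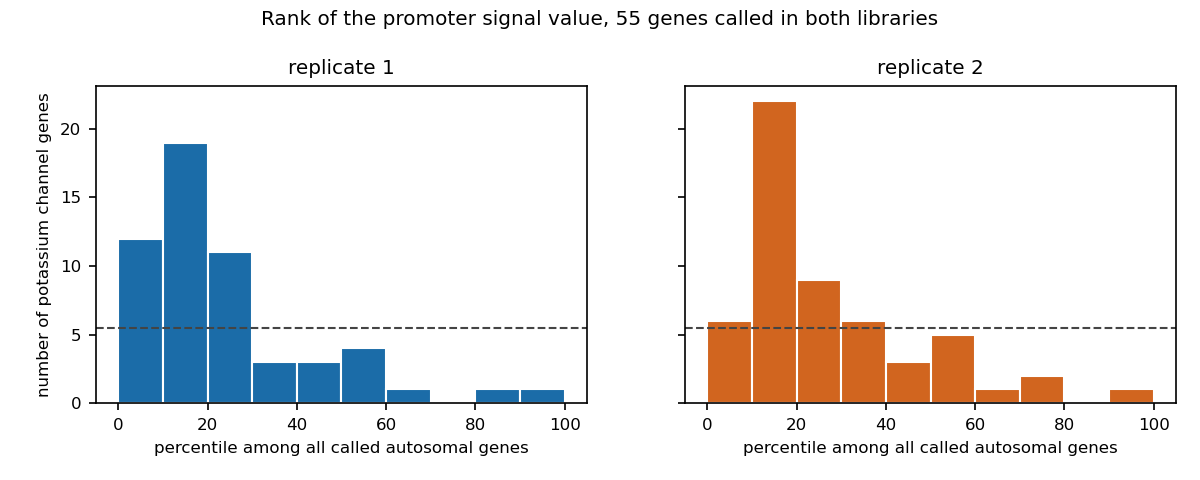
Histograms of the percentile of the promoter signal value among all autosomal protein-coding genes called in the same library, for the 55 potassium channel genes called in both libraries (x axis, percentile in steps of 10; y axis, number of genes), with a dashed line at the height an even spread would have. The genes pile up at low percentiles in both libraries, with 48 below the 50th in replicate 1 and 46 in replicate 2.

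CpG content separated called from uncalled channel genes. The observed to expected CpG ratio within 500 bp of the start split the genes at 0.6 into 47 CpG-richer and 38 CpG-poor ones. Among the CpG-richer genes, 40 (85.1%) had a promoter call in both libraries, against 90.9% of all CpG-richer genes. The 3 CpG-richer genes with no call were Kcng1, Kcnk6 and Kcnq1, and 4 were called in replicate 2 only (Kcnc4, Kcnj10 and Kcnk15 among them). Among the CpG-poor genes, 15 (39.5%) had a call in both libraries, against 20.6% of all CpG-poor genes, 4 were called in replicate 2 only (Kcng2, Kcnip1, Kcnj9 and Kcnn1) and 19 in neither. The channel genes were thus near the background where CpGs were dense and above it where they were sparse. The 15 CpG-poor promoters called in both libraries were those of Kcna4, Kcnab1, Kcnc2, Kcnf1, Kcnh5, Kcnip2, Kcnj2, Kcnj3, Kcnj11, Kcnj16, Kcnk4, Kcnk13, Kcnn3, Kcnt2 and Kcnv1. The low rank of the signals held within both classes: the median percentiles were 20.5 and 23.0 for CpG-richer channel genes, against 56.4 and 58.9 for all CpG-richer genes, and 11.8 and 19.0 for CpG-poor ones, against 24.0 and 28.9.

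**Figure D2:**
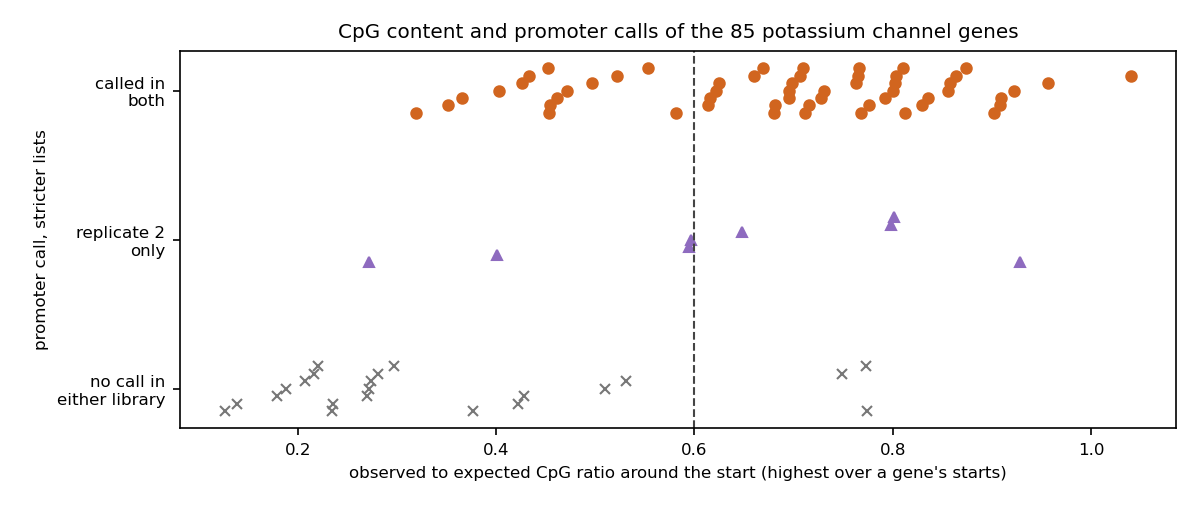
Observed to expected CpG ratio within 500 bp of the transcription start (x axis, highest over the starts of a gene) of each of the 85 potassium channel genes, by promoter call (rows: both libraries, replicate 2 only, neither), with vertical scatter only to separate points. Of the 22 genes without a call, 19 lie left of the dashed line at 0.6, and of the 55 genes called in both libraries, 40 lie right of it.

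Although their signals were low, the calls of these promoters had a larger summed length. Each call was added separately within the promoter windows, so bases in overlapping calls of a library were counted more than once. The median sum was 584 bp in replicate 1 and 711 bp in replicate 2, against 440 and 360 bp over all genes called in both libraries. Bases covered after merging overlapping calls were not computed. The contrast was the same for genes with all their starts in a single window: 39 channel genes had medians of 584 and 711 bp, and 9867 genes of any kind had 436 and 340 bp. At least 3 calls in each library were found at 12 of the 55 promoters (21.8%, against 9.32% of all genes called in both). Calls that overlap or lie inside another were counted separately, so these are not always separate sites. The summed length reached at least 1000 bp in both libraries at 9 of them (16.4% against 4.69%): Kcna2, Kcnb2, Kcnd2, Kcnd3, Kcnh5, Kcnj3, Kcnk12, Kcnn2 and Kcnq5. At Kcnh5 in replicate 2 it did so only because calls overlapped. Both shares rest on unmerged sums. Kcnk12 and Kcnd3 also lay in stretches with many distal calls in replicate 1, 63 and 34, against 4 and 4 in replicate 2. Whether those stretches bear on the summed lengths of replicate 1 was not tested. At Kcnd2, the pore subunit of the A-type current in dendrites, the longest call had 1220 bp in replicate 1 and 1000 bp in replicate 2, at signal values of only 1.11 and 1.85. At Kcnj3, which encodes a subunit of G-protein-gated inward rectifiers, call lengths summed to 1564 and 2357 bp, overlaps included, at promoter signals of 0.710 and 1.83. The strongest call lay a median of 140 bp from the nearest start in replicate 1 and 130 bp in replicate 2, against 89.0 and 69.0 bp over all genes. At 1 of the 55 promoters the strongest call also lay in the promoter window of another protein-coding gene (Kcnab2, with Nphp4), which is 1.82% against 19.7% of all genes.

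**Figure D3:**
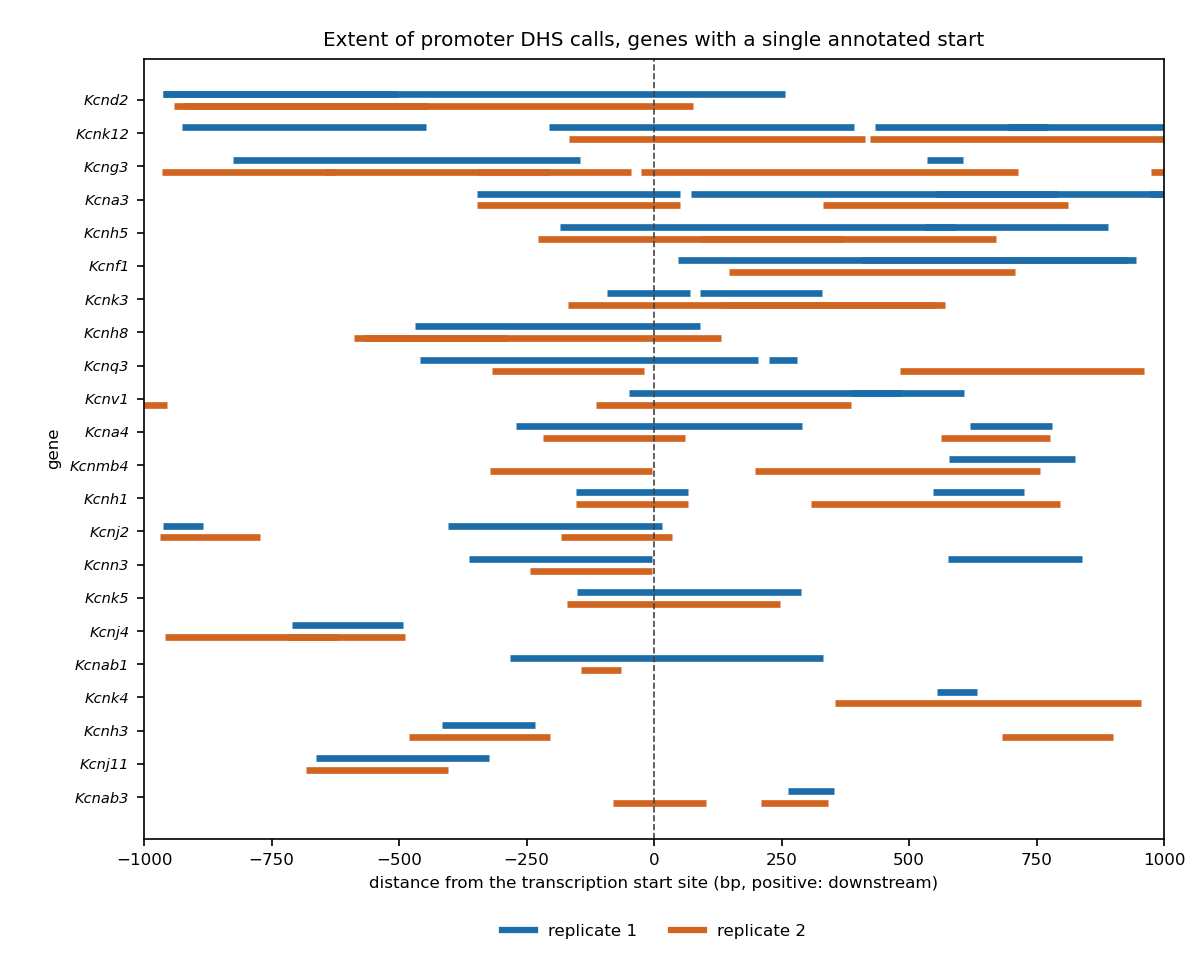
Promoter DHS calls of the potassium channel genes that had a single annotated start and were called in both libraries, as bars from 1000 bp upstream to 1000 bp downstream of the start (x axis, distance in bp; dashed line, the start; one row per gene, blue for replicate 1 and orange for replicate 2). Kcnd2 and Kcnk12 are covered over much of the window in both libraries, while Kcnk4 and Kcnab3 are covered over short stretches in replicate 1.

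Footprints inside these calls were counted once each. The promoter calls of the 55 genes held 305 footprints in replicate 1 and 499 in replicate 2, with a median of 5 and 9 per gene against 4 and 6 over all genes called in both. Per kb of summed call length the medians were 7.50 and 11.7, against 9.01 and 14.7 over all genes. Overlapping calls add to that length but not to the footprints. Calls count whole for footprints and only within the windows for length, so no lower density is read from these values. A footprint in both libraries was found at 50 of the 55 promoters (90.9%, against 96.5%). The 5 others were Kcnip3, Kcnj12, Kcnk3, Kcnk4 and Kcnt1, each without a footprint in replicate 1 and with at least 4 in replicate 2.

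**Figure D4:**
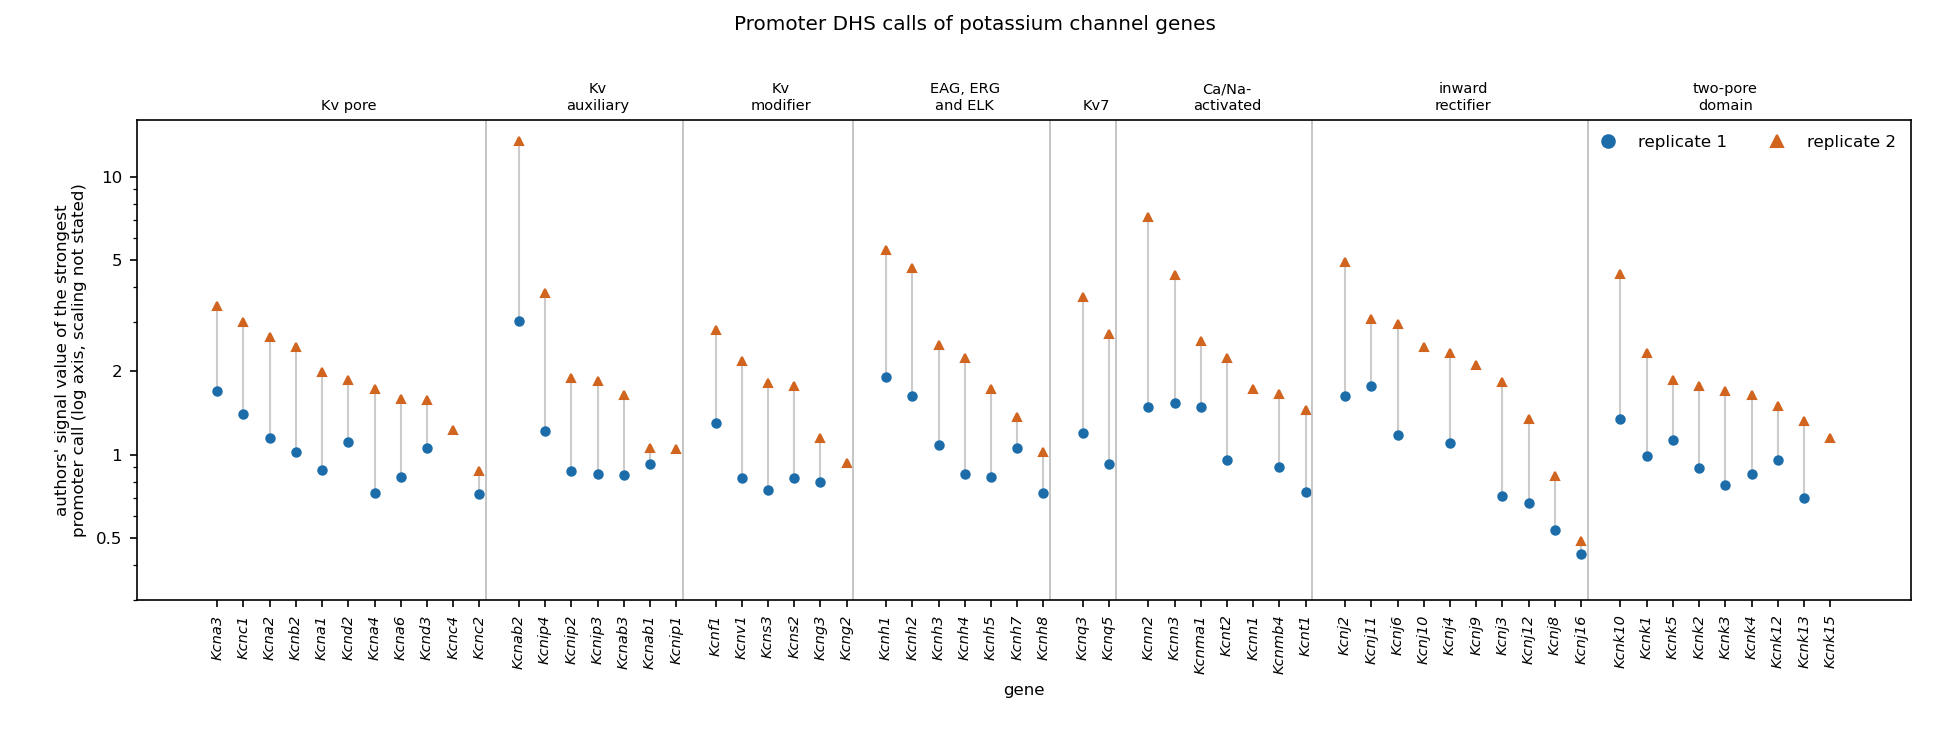
Signal value of the strongest promoter call (y axis, log scale, authors' units with scaling not stated) of 59 of the potassium channel genes called in replicate 2, grouped by role, with blue circles for replicate 1, orange triangles for replicate 2 and a grey line joining a gene's values. Kcnab2 stands highest in both libraries, and 7 of the genes shown have a triangle only. Joined values can come from different sites in the promoter windows of a gene.

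The pore-forming subunits of the classical Kv channels (Kcna, Kcnb, Kcnc and Kcnd) had a promoter call in both libraries at 12 of 16 genes, in replicate 2 only at Kcnc4, and in neither at Kcna5, Kcna7 and Kcna10. Among the Shaker-type genes, which encode low-threshold channels of axons and terminals, Kcna3 stood highest at 1.70 and 3.44, followed in replicate 2 by Kcna2 (1.15 and 2.65), Kcna1 (0.883 and 1.99), Kcna4 (0.729 and 1.72) and Kcna6 (0.831 and 1.59). The 3 Kcna genes without a call encode channels best known from heart, muscle and kidney, and all 3 had CpG-poor promoters. Kcnb2, which encodes a delayed rectifier, had 1.02 and 2.43. Of the fast-deactivating Kcnc channels of rapidly firing cells, Kcnc1 had 1.40 and 3.01, and Kcnc2 only 0.724 and 0.874. The A-type pore subunits Kcnd2 (1.11 and 1.85) and Kcnd3 (1.06 and 1.57) had near-equal signals. Their longest calls had 1220 and 1000 bp at Kcnd2 and 660 and 677 bp at Kcnd3.

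The cytoplasmic auxiliary subunits of Kv channels were called at every gene in replicate 2 and at 6 of 7 in both libraries. Kcnab2, which encodes a beta subunit with an aldo-keto reductase fold, had the highest promoter signal of all 85 genes, 3.03 and 13.5, at percentiles 96.0 and 98.5. Its strongest call, at chr4:152477461-152477760 in replicate 2 and reaching 152477980 in replicate 1, held 5 and 7 footprints respectively. The same window serves Nphp4, so the signal is not that of Kcnab2 alone. The other beta subunit genes had 0.845 and 1.64 (Kcnab3) and 0.925 and 1.06 (Kcnab1). Of the calcium-binding Kv4 partners, Kcnip4 had 1.22 and 3.81, Kcnip2 0.873 and 1.88, Kcnip3 0.855 and 1.84, and Kcnip1 a call in replicate 2 only, at 1.05. Kcna2, Kcna3, Kcnab2, Kcnc1 and Kcnip4 were among the pore and auxiliary genes ranked above percentile 25 in both libraries.

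The modifier subunits, which form no channel alone but change Kv2 channels when they join them, were called in both libraries at 5 of 10 genes. Kcnf1 had 1.30 and 2.80, Kcnv1 0.827 and 2.18, Kcns3 0.747 and 1.81, Kcns2 0.827 and 1.76, and Kcng3 0.799 and 1.15. Kcng2 was called in replicate 2 only, at 0.930. Kcng1, Kcng4, Kcns1 and Kcnv2 had no call in either library, and 3 of these 4 had CpG-poor promoters, Kcng1 being the exception. The modifiers that were called sat low in the ranking, with Kcnf1 at percentiles 34.1 and 32.3 the highest of them.

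The ether-a-go-go group (Kcnh), voltage-gated channels with slow or unusual gating, was called in both libraries at 7 of 8 genes, with Kcnh6 uncalled. Kcnh1 had 1.91 and 5.44 in a call of identical bounds in both libraries, from 153 bp before to 66 bp after the start. Kcnh2, the ERG channel gene that is also essential in heart, had 1.63 and 4.71. The others ranged from 0.729 and 1.02 at Kcnh8 to 1.08 and 2.49 at Kcnh3, with Kcnh4 at 0.850 and 2.23, Kcnh5 at 0.831 and 1.73 and Kcnh7 at 1.06 and 1.37. Kcnh1 and Kcnh2, like Kcnab2 and Kcnj2, were above the 50th percentile in both libraries.

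The Kv7 genes (Kcnq) encode the M-current, which damps repetitive firing and is closed by muscarinic receptors. Of the 5 genes, 3 were called in both libraries, 1 in replicate 2 only and 1 in neither, and all 5 had CpG-richer promoters. Kcnq3 had 1.20 and 3.69, and Kcnq5 had 0.929 and 2.71, both of them known for the neuronal M-current. Kcnq1, the cardiac and epithelial member, had no call in either library and was among the few uncalled promoters of its CpG class.

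Of the calcium- and sodium-activated channels, 6 of 11 genes were called in both libraries. Kcnn2 and Kcnn3, which encode small-conductance channels behind the afterhyperpolarisation, had 1.49 and 7.19 and 1.54 and 4.43. Kcnn2 reached percentile 78.5 in replicate 2 and 44.2 in replicate 1. Its call lengths in the promoter windows summed to 3441 bp in replicate 1 and 1120 bp in replicate 2. The sum of replicate 1 counts bases in overlapping calls more than once. Kcnma1, the big-conductance BK channel gene, had 1.48 and 2.56, Kcnt2 0.957 and 2.22, and Kcnt1 0.733 and 1.45. Kcnmb4, the BK beta subunit gene typical of brain, had 0.901 and 1.65, whereas Kcnmb1, Kcnmb2 and Kcnmb3 had no call. Kcnn1 was called in replicate 2 only, at 1.73, and Kcnn4, known from blood cells and epithelia, in neither.

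Inward rectifiers were called in both libraries at 8 of 15 genes. Kcnj2, a strong rectifier that holds the resting potential, had 1.63 and 4.94, and Kcnj11, the pore subunit of the ATP-sensitive channel, 1.76 and 3.08. Among the G-protein-gated subunits, Kcnj6 had 1.18 and 2.96 and Kcnj3 0.710 and 1.83, Kcnj9 was called in replicate 2 only at 2.10, and Kcnj5, the atrial subunit, had no call. The remaining called genes were Kcnj4 (1.10 and 2.32), Kcnj12 (0.672 and 1.34), Kcnj8 (0.537 and 0.835) and Kcnj16 (0.439 and 0.488). Kcnj8, known from pericytes and smooth muscle, and Kcnj16 had the 2 lowest signals in replicate 1 of all channel genes called in both libraries. Kcnj10, the potassium-buffering channel gene of astrocytes, was called in replicate 2 only, at 2.44, as was its neighbour on chromosome 1, Kcnj9. Kcnj1, Kcnj13, Kcnj14 and Kcnj15 had no call, and 10 of the 15 genes of this family had CpG-poor promoters.

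The two-pore domain genes were called in both libraries at 8 of 13. Kcnk10 had 1.34 and 4.47 and Kcnk1 0.990 and 2.33, the 2 highest values of replicate 2 in the family. Kcnk5 (1.13 and 1.86), Kcnk2 (0.892 and 1.76), Kcnk3 (0.775 and 1.69), Kcnk4 (0.850 and 1.64), Kcnk12 (0.957 and 1.50) and Kcnk13 (0.700 and 1.32) lay close together. Kcnk2, Kcnk4 and Kcnk10 encode the mechanically gated and lipid-sensitive leak channels, and all 3 were called in both libraries. Kcnk15 was called in replicate 2 only at 1.15, and Kcnk6, Kcnk7, Kcnk16 and Kcnk18 had no call. Among the families with more than 2 genes, the share called in both libraries was thus highest in Kcnab (3 of 3) and Kcnh (7 of 8) and lowest in Kcng and Kcnmb, each with 1 of 4. The share over all genes was 57.2%, with 90.9% of CpG-richer and 20.6% of CpG-poor genes. CpG-poor genes numbered 1 in Kcnab, 2 in Kcnh, 2 in Kcng and 3 in Kcnmb. With so few genes in each, nothing is read from the family counts.

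The 8 genes called in replicate 2 only were looked up in the other files of replicate 1. The authors' false discovery rate of the cut rate, which is listed only under 0.05, was present in the promoter windows of 7 of them in replicate 1, the exception being Kcnj9. That is 87.5%, near the 83.4% of all genes called in replicate 2 only. Kcnj10 had the lowest rate there, 0.000778, and Kcnc4 the most bases, 1126. In the lenient list of replicate 1, 6 of the 8 genes had a call, among them Kcnj10 at 1.11 and Kcnk15 at 0.850, while Kcnj9 and Kcnn1 had none. Kcnj9 and Kcnn1 were therefore the only channel genes called in replicate 2 whose promoter had no call of any list in replicate 1.

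The 22 genes without a promoter call also differed among themselves. A base with a listed false discovery rate was found at 6 of them in replicate 1 (27.3%, against 9.77% of the 7813 genes without a call) and at 9 in replicate 2 (40.9% against 12.7%). The lenient lists had a call in both libraries at 4 of them, Kcna5 (0.369 and 0.756), Kcng1 (0.598 and 1.24), Kcnk6 (0.462 and 0.685) and Kcnmb2 (0.397 and 0.583). They had a call in 1 library at 5, Kcna10, Kcnj5, Kcnmb1 and Kcns1 in replicate 2 and Kcna7 in replicate 1. The 13 genes in no list of either library were Kcng4, Kcnh6, Kcnj1, Kcnj13, Kcnj14, Kcnj15, Kcnk7, Kcnk16, Kcnk18, Kcnmb3, Kcnn4, Kcnq1 and Kcnv2. Several of these are known from kidney, choroid plexus, retina, heart or sensory ganglia, and 12 of the 13 had CpG-poor promoters, Kcnq1 being the exception.

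Many channel genes have alternative starts, and the calls picked out a single one of them in most cases. Of the 16 genes called in both libraries with starts in 2 or more separate windows, 14 (87.5%, against 80.0% of all such genes) had exactly 1 window called in both. It was the most upstream window at 10 of these 14, and at 1311 of the 1622 such genes of any kind. At Kcnk2 and Kcnk10 the upstream window had no call and the downstream window held the signal, and at Kcnj16 it was the middle of 3 windows. At Kcnt1 the downstream window was called in both libraries and the upstream one in replicate 2 only, at 1.00. At Kcnma1, whose starts fall in 3 windows, the first carried the signal and the third had a call of 0.177 in replicate 1 only. Kcnip4 and Kcnn2 had 2 windows called in both: at Kcnip4 these were 1.22 and 3.81 at the most upstream start and 0.364 and 0.520 at the third of 4, and at Kcnn2 they were 1.13 and 3.28 upstream and 1.49 and 7.19 downstream. A second Kcnip4 window was called in replicate 1 only, at 0.551, and the fourth in replicate 2 only, at 0.394.

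Consensus sequences were counted in the 300 bases around RefSeq starts (250 before to 50 after, GRCm38), which were at hand for 64 of the 85 genes with 87 starts, and for 19174 starts of all autosomal protein-coding genes. Both strands were searched, CAGCTG is its own reverse complement, and a match is a description of the letters and not a binding site. The SP1 consensus GGGCGG occurred in 42 of the 87 promoters (48.3%), the same share as in all promoters (48.3%). The E-box CAGCTG occurred in 22 (25.3%, against 15.8%) and the NEUROD E-box CAGATGG in 4 (4.60% against 4.12%). The ETS consensus CCGGAAGT, the YY1 consensus AAGATGGC, the cAMP response element TGACGTCA, the EGR consensus GCGTGGGCG and the NRF1, REST and CTCF consensus occurred in none, against 5.45%, 3.09%, 2.36%, 0.881%, 1.39%, 0.0522% and 0.595% of all promoters. ETS and YY1 were also at 0 in the 1000 bases around the same 87 starts, where 7.74% and 7.68% of all promoters held them. In that longer window the E-box occurred at 49.4% of the channel starts against 42.1% of all, a smaller contrast than in the 300 bases. The starts of a gene share sequence, so the 87 are not independent.

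Away from promoters, 80 shared DHSs lay nearest a channel gene, of 11165 nearest any autosomal protein-coding gene. At least 1 was found at 50 of the 85 channel genes (58.8%, against 30.8% of all genes), 31 with a single one and 19 with 2 or more. The channel genes also had more sequence around them: the median territory, the stretch nearer to a gene's starts than to those of any other, was 109 kb against 45.3 kb. Per Mb of territory they had 3.34 distal shared DHSs, against 4.53 over all genes, so the larger share of genes with one came with a lower density. Of the 80, 34 lay in the channel gene itself, 3 in another gene and 43 between genes. The median distance to the start was 26.9 kb, and 63 lay within 100 kb. Their median signals, 0.997 and 2.10, were close to the 0.967 and 1.80 of all distal shared DHSs, unlike the promoter signals, which were below the background.

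The gene with the most distal shared DHSs was Kcnq3 with 5, of which 3 were intronic at 2.04, 47.3 and 114 kb from the start and 2 lay upstream at 27.7 and 37.9 kb. Kcna5 and Kcnj2 had 4 each, and Kcnip1, Kcnj6, Kcnj15 and Kcnma1 had 3 each. Those of Kcnj2 lay 147, 458, 472 and 752 kb downstream in the gene-poor stretch beyond it and were weak, between 0.481 and 0.897 in replicate 1 and between 0.536 and 1.17 in replicate 2. Those of Kcna5, on chromosome 6 where Kcna1 and Kcna6 also lie, ran from 50.6 kb upstream to 37.4 kb downstream of a gene that had no stricter promoter call. Kcnip1 had its 3 intronic DHSs 110, 118 and 122 kb from its nearest start, and a further DHS in the same gene, of 1.82 and 2.46, lay nearest the start of Kcnmb1. A nearest start is a label of position, and which gene a DHS acts on was not tested.

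The distal sites are printed for 2 reasons: 2 had high signals near channel genes, and 3 others held the CTCF consensus inside footprints. All are from the mm10 reference on the plus strand, over the stretch called in both libraries or the part of it shown by the coordinates, and capitals mark bases inside footprints of both libraries. The site nearest Kcnn1 is chr8:70865662-70865920, and the intronic site of Kcnab2 is chr4:152434921-152435120. The intronic site of Kcnip4 is chr5:49090241-49090420, and the intergenic sites nearest Kcna5 and Kcnj15 are chr6:126500161-126500360 and chr16:95341451-95341750.
Kcnn1 distal: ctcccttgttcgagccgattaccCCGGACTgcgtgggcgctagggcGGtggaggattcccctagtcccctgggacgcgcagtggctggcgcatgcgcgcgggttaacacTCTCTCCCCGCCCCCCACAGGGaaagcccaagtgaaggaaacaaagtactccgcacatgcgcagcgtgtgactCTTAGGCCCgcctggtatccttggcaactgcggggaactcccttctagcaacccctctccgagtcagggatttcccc
Kcnab2 distal: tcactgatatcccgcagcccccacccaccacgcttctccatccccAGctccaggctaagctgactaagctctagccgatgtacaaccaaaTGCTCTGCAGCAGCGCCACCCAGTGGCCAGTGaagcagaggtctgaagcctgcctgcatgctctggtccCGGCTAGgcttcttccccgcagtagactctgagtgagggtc
Kcnip4 distal: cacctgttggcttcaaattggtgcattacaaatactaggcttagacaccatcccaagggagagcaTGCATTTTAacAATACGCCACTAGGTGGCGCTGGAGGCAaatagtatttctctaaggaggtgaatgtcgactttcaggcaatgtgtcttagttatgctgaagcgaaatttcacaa
Kcna5 distal: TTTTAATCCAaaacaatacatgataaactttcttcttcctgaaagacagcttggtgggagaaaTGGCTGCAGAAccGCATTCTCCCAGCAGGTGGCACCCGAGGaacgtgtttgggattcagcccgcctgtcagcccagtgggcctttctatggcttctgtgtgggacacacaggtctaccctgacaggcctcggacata
Kcnj15 distal: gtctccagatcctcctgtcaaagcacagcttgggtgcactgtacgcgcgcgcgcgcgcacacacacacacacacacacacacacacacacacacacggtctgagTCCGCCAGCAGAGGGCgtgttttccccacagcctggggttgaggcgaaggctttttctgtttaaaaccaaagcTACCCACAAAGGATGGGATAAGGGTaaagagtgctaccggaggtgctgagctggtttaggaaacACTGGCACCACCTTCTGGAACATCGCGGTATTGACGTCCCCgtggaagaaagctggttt
The Kcnn1 site had the highest signal of the 80, 2.75 and 13.4, well above the 1.73 of the promoter call of Kcnn1 in replicate 2. The whole DHS spans chr8:70865481-70865940, centred 2.45 kb upstream of the most upstream annotated start, and held 6 footprints in replicate 1 and 10 in replicate 2. A predicted transcript start of Kcnn1 in the RefSeq annotation, at base 70865691 on the minus strand, lies inside it, though no GENCODE basic start does. Its printed stretch holds an EGR consensus at bases 31 to 39, an NRF1 consensus at 88 to 97 and SP1 matches at 43 to 48 and 117 to 122, the last of them wholly in footprint bases. A RefSeq start of an mRNA lay inside 2 other distal sites, one of them nearest Kcnk1, with a start of Slc35f3. Such starts were found at 3 of 80 sites (3.75%), against 2.71% of all distal shared DHSs.

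The intronic DHS of Kcnab2 had 2.39 and 7.33 and lay 13.8 kb downstream of the nearest start of the gene, an internal one without a promoter call. Kcnab2 also ranked high at its promoter, whereas Kcnj15, whose strongest distal site had 1.71 and 5.44, had no promoter call in any list. Near genes called in both libraries lay 52 of the 80 distal sites, near those called in replicate 2 only 9, and near uncalled genes 19. Of the 11165 distal sites nearest any autosomal gene, 7606 lay near genes called in both and 2787 near uncalled ones, much the same division.

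The CTCF consensus, bound by the factor that anchors chromatin loops and marks many insulators, occurred in the central 150 bases of 21 of the 80 distal sites (26.2%, against 18.2% of all distal shared DHSs). At 19 of the 21 (90.5% against 85.8%) the consensus lay wholly inside a single footprint in both libraries, as it does in the printed sites of Kcnip4 (bases 83 to 94), Kcna5 (85 to 96) and Kcnj15 (109 to 120). Near the uncalled channel genes 9 of 19 distal sites held it (47.4%, against 20.3% near all uncalled genes), and near those called in both libraries 8 of 52 (15.4% against 17.3%). All 3 distal sites of Kcnj15 and both of Kcnk18 held the consensus, and neither gene had a promoter call. The SP1 consensus GGGCGG, frequent at the promoters, occurred in 5 of the 80 (6.25% against 14.2%).

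**Figure D5:**
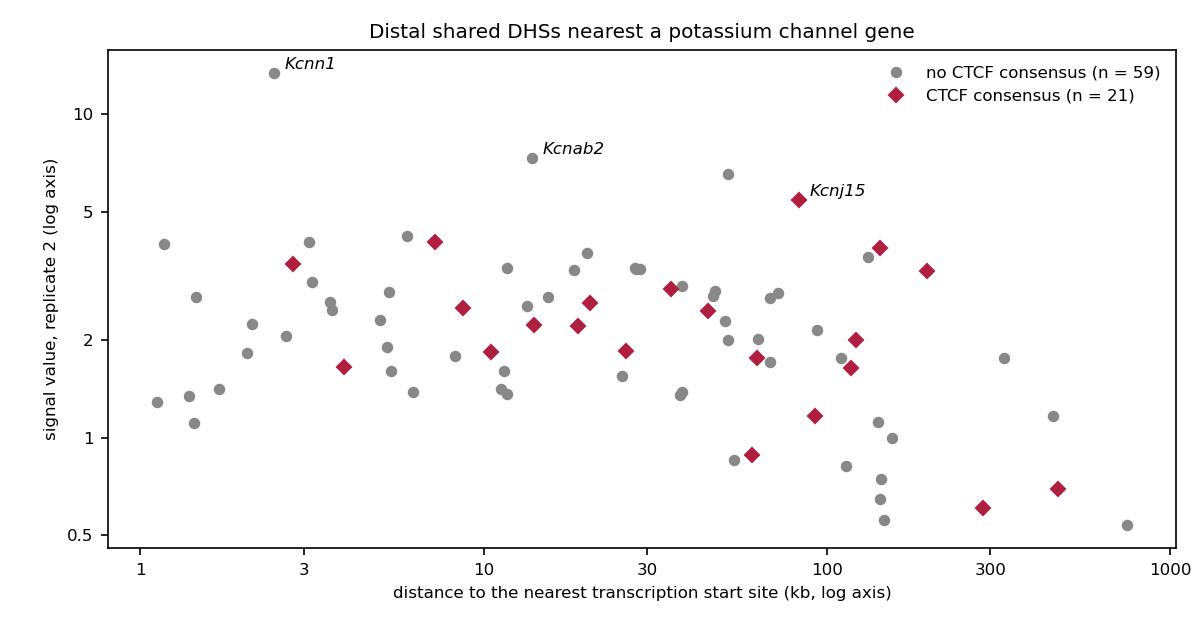
Signal value in replicate 2 (y axis, log scale, authors' units) against distance to the nearest transcription start in kb (x axis, log scale) for the 80 distal shared DHSs nearest a potassium channel gene, with red diamonds for the 21 that hold the CTCF consensus and grey circles for the 59 others. Sites near Kcnn1, Kcnab2 and Kcnj15 are labelled by nearest gene, and the site of Kcnn1 at 2.45 kb stands above all others.

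All distal calls of each library, shared or not, were more numerous than the shared DHSs and behaved differently in the 2 libraries. Replicate 1 had 401 distal calls nearest a channel gene, of which 300 (74.8%, against 62.0% for all genes) had a signal value under 0.3, and replicate 2 had 188, of which 13 (6.91% against 3.96%) did. They were concentrated at a few genes in replicate 1, with 63 nearest Kcnk12, 45 nearest Kcnk13, 36 nearest Kcnk10 and 34 nearest Kcnd3, where replicate 2 had 4, 3, 0 and 4. The reason for these stretches was not tested, and they do not enter the shared set unless replicate 2 has a call there. Promoter windows of the same genes also held bases under a false discovery rate of 0.001. In replicate 1 and replicate 2 these numbered 2001 and 1173 at Kcnk12 and 1442 and 195 at Kcnk13. At Kcnk10 they numbered 1193 and 1692, and at Kcnd3 1432 and 1348.

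A further list held channel subunits outside these name groups and proteins that bind, place or modulate the channels. Of its 31 autosomal genes, 20 had a promoter call in both libraries (64.5%, near the 57.2% of all autosomal protein-coding genes), 3 in replicate 2 only (Abcc8, Cntn2 and Lrrc52), 1 in replicate 1 only (Lrrc38) and 7 in neither (Abcc9, Kcne1, Kcne2, Kcne4, Kcnrg, Kcnu1 and Lrrc55). The Kcne genes, which encode single-pass partners of Kv7 and other channels, were called only at Kcne3, at 0.584 and 0.591. The sulfonylurea receptor genes Abcc8 and Abcc9, partners of Kcnj11 and Kcnj8, had 0.993 in replicate 2 only and no call. By contrast, the Kv4 partners Dpp6 (1.14 and 2.68) and Dpp10 (1.03 and 2.41), the scaffolds Dlg2 (1.96 and 8.20) and Dlg4 (1.15 and 6.48), and the calmodulin gene Calm3 (4.44 and 15.6) were called in both. No channel gene reached the signal of Calm3 in either library.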

How the data were processed

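Each library had its own files on mm10, per the file headers. An aligner or peak caller was not given in the sources used here, nor were versions or parameters. The deposited peak lists give a signal value per call, a tag density as the authors made it, with scaling not stated. The authors' cut rate file gives false discovery rates (q-values, a kind of p-value) per run of bases, listed only under 0.05, and the deposited footprint files carry 0.01 on every line, taken as a threshold p-value. The list with fewer calls in each library was used as the stricter one. Sequencing depth is unknown from these lists.

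Starts were those of GENCODE M21 basic protein-coding transcripts. A promoter signal was the highest value of the calls within 1 kb of a start. Calls overlapping by 1 bp or more formed shared DHSs, and distal DHSs overlapped no promoter window and were assigned to the gene with the nearest start. Call lengths were summed within the promoter windows without merging overlapping calls of a library. Footprints were counted once each when wholly inside a call. Overlaps were computed in Python 3.11.15 with numpy 2.4.6, tested on simulated data, and plots were drawn with matplotlib 3.10.9.

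The gene group and the partner, marker and consensus lists were chosen with earlier results of these data known. By the rule for named genes, each gene is named with its promoter state and, where called in both libraries, its signal, and positions, footprints or distal DHSs are given for the 2 highest-ranked per family, a fixed list, the 10 with the most distal DHSs and those called in 1 library. Some genes with these prefixes and some markers are not reported here by name, and no test was made. The alternatives were other promoter windows, lenient lists, stronger calls, other starts, other CpG limits, other overlap rules, a distance limit and each library alone.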

Additional observations from a re-analysis of the deposited data

How the results depend on the processing

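The number of channel genes with a promoter call in both libraries, 55, kept within 1.5 times of itself under every alternative run. It was 53 of the 85 with windows of 0.5 kb (Kcnk4 and Kcnmb4 lost), where 56.0% of all genes were called. Windows of 2.5 kb gave 57 (Kcnn1 and Kcns1 gained), against 59.0% of all genes. The lenient lists gave 65, against 63.0% of all genes, and the stronger 50% of calls gave 46, against 52.2%. The count stayed at 55 without calls under 0.3 (57.1% of all genes) and with the starts of every basic transcript (57.2%). Leaving out replicate 1 gave 63 genes (74.1%, against 61.3% of all genes) and leaving out replicate 2 gave 55 (64.7% against 58.3%). The CpG-poor share called ranged from 38.7% to 56.1% and the CpG-richer share from 79.6% to 93.6% over the alternatives; the background share of CpG-poor genes was lower and that of CpG-richer genes higher in each. The number of distal DHSs did depend on the list: 80 shared ones became 174 with the lenient lists, and counting the calls of a single library gave between 188 (without replicate 1) and 401 (without replicate 2). It was 63 within 100 kb, 79 with an overlap of 50% and 80 without calls under 0.3. The partner count of 20 of 31 went to 25 with the lenient lists, where 63.0% of all genes were called. Within 500 bases of the start instead of the shorter window, promoters with a cAMP response element went from 0 to 2, with the NEUROD E-box from 4 to 15 (17.2%, against 16.2% of all promoters) and with the E-box from 22 to 43 (49.4% against 42.1%), so the E-box contrast shrank. No paired analysis was possible because there is 1 group. With 2 libraries and no depth given, an absent call does not show closed chromatin.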
